A study of Mus musculus with 3 samples.

Results

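Choroid plexus genes were examined in a comparison of embryonic mouse cortex carrying a deletion in Snf2l, an ATPase that moves nucleosomes, with wild-type cortex. The set named 10 genes: the transcription factors Otx2 and Lmx1a, the secreted proteins Ttr and Enpp2, the receptors Folr1, Prlr and Kl, and the channels and transporters Aqp1, Clic6 and Slc4a5. Their probes were found by gene symbol in the platform annotation, which named 11 probes of 8 of these genes. Slc4a5 was matched through its older name C330016K18Rik, which gave 12 probes of 9 genes among 38880 probes and 28332 features in all. Prlr, the prolactin receptor, was matched to no named probe and is not analysed here.

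The choroid plexus is a fold of vascular tissue that projects into the brain ventricles. Its single-layered epithelium arises from the roof plate and, in the forebrain, from tissue next to the cortical hem. It secretes cerebrospinal fluid by moving sodium, chloride, bicarbonate and water, and it supplies that fluid with carriers of thyroid hormone, retinol and folate. The epithelium of the lateral ventricles is attached to the medial wall of the cortex, so that a cortical dissection can include or leave behind some of it.

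Each of 3 two-colour arrays set RNA of Snf2l-Ex6DEL mice, which carry a deletion of exon 6 of Snf2l (current symbol Smarca1), against RNA of wild-type mice. Both genotypes were of the 129Sv background and both were sampled as dissected cortices at E15.5, a stage counted in days of embryonic life. Per genotype there were 2 RNA samples. The first sample of each was hybridised on replicates 1 and 2 with the dyes exchanged (pair 1), and the second on replicate 3, a single array (pair 2), so that n = 2 pairs. The sources used here do not say whether an RNA came from 1 embryo or several. The p-values thus rest on the spread between these pairs and on no other replication. Limma's test moderates that spread with the spread of all features.

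Values are log2 ratios, and those above 0 are read as higher in Snf2l-Ex6DEL cortex. No source used here states that direction. It is likely, because mutant RNA is listed as channel 2 of every array and stands first in the study's title. A ratio inverted on every array would turn all signs. Were replicate 3 alone inverted, Folr1 and Enpp2 would no longer be below 0 on all 3 arrays, and Aqp1, Clic6 and Ttr would be. The probe of Smarca1 read -0.017 and 0.36 in pair 1 and 3.11 in pair 2, and since its place relative to exon 6 is unknown here it checks no label. Replicates 1 and 2 correlated at r = 0.245 and the pairs at r = -0.066 (Pearson, across features, which are no replicates). On each array many probes shared 1 value, namely 0.009, 0 and 0.001 on replicates 1 to 3 (11.7%, 16.6% and 21.9% of probes), which is read here as no measurement. Array intensities were not used, so that a ratio says nothing of how strongly a gene was expressed, and the choroid plexus markers could not be checked for presence.

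Folr1 and Enpp2 were the members with ratios below 0 on all 3 arrays, Aqp1 had the ratios farthest from 0 but in pair 1 alone, and none of the 9 measured genes passed the test between genotypes. Aqp1, Clic6 and Ttr were below 0 on both arrays of pair 1 and above 0 in pair 2. Otx2, Lmx1a, Kl and Slc4a5 had opposite signs on the 2 arrays of pair 1, which carried the same RNAs. For Lmx1a this held for the mean of its probes and for neither probe. Limma's moderated test over the pairs called 0 of 28332 features (0%) at an adjusted p of 0.05, and 0 of the 9 members, whose adjusted p ranged over 0.852 to 0.997. That test took the shared value as a ratio. Kl and Slc4a5 had it as their only value of pair 2, and 7 members were away from it on all arrays. At an unadjusted p under 0.05 the same test had 715 features. Values after ± are limma's moderated standard errors. In a bulk tissue, fewer cells of a type and less RNA per cell cannot be told apart.

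**Figure D1:**
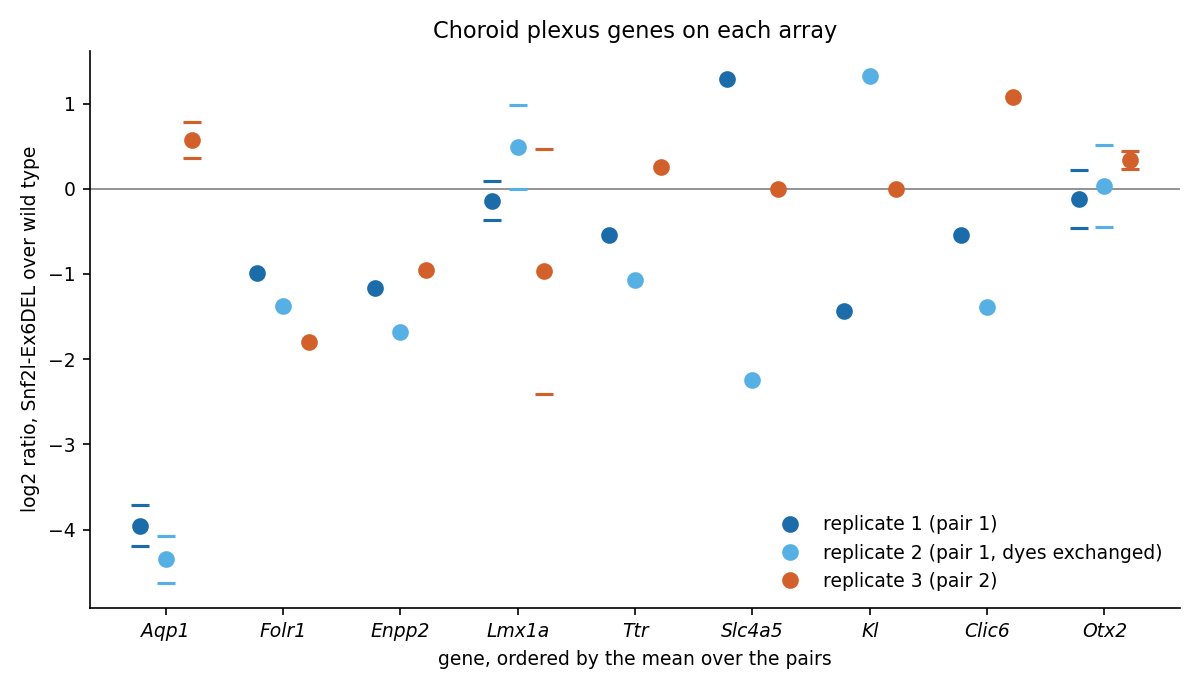
Log2 ratio of Snf2l-Ex6DEL over wild type (vertical axis) for the 9 measured choroid plexus genes on each of 3 arrays. Circles are the mean of a gene's probes and short bars the single probes of Aqp1, Lmx1a and Otx2; Folr1 and Enpp2 lie below 0 on all 3 arrays, while Aqp1 lies near -4 in pair 1 and at 0.57 in pair 2.

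Folr1, the folate receptor that carries folate across the choroid epithelium into cerebrospinal fluid, read -0.985, -1.379 and -1.795 on replicates 1 to 3. The ratios correspond to 1.98-fold, 2.60-fold and 3.47-fold lower signal in Snf2l-Ex6DEL cortex than in wild type. Pair 2 thus gave the lower ratio, and the 2 arrays of pair 1 differed by 0.39. Its mean over the pairs was -1.49 ± 0.30 (n = 2 pairs, limma's unadjusted p = 0.0357, adjusted p = 0.852). It lay among the lower ratios of each array, with 16.1%, 9.57% and 6.09% of features below it.

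Enpp2, or autotaxin, is a secreted enzyme that makes lysophosphatidic acid and is abundant in choroid plexus. It read -1.17, -1.68 and -0.95 on replicates 1 to 3, so that pair 1 was the lower pair. The mean was -1.19 ± 0.27 (n = 2 pairs, limma's unadjusted p = 0.0447, adjusted p = 0.852). Enpp2 is not restricted to choroid plexus, being made by the oligodendrocyte lineage and mesenchymal cells too.

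Folr1 and Enpp2 were at least 1.5-fold lower on all 3 arrays. That is 2 of 9 members (22.2%), where 1.73% of all features met the same condition. Among 18967 features away from the shared value on all arrays the share was 2.59%. Of the members, 0 were at least 1.5-fold higher on all 3 arrays (1.12% of all features). At an unadjusted p under 0.05 in limma, the same pair of genes were lower (1.51% of all features) and 0 members were higher (1.01%). Each gene rests on 1 probe, and neither reached 2-fold on every array. The genes were chosen with earlier results of these data known, so that these shares are descriptions.

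Aqp1, the water channel of the ventricular face of the choroid epithelium, read -3.96 and -4.35 in pair 1 and 0.57 in pair 2. In pair 1 its signal was thus 15.52-fold and 20.4-fold lower in Snf2l-Ex6DEL than in wild-type cortex, and in pair 2 it was 1.49-fold higher. Only 1.39% and 0.854% of features lay below it on replicates 1 and 2, against 80.2% on replicate 3. Both of its probes showed the same pattern, at -4.20, -4.08 and 0.36 for 1 of them and -3.71, -4.62 and 0.78 for the other. The mean over the pairs was -1.79 ± 1.65 (n = 2 pairs, limma's adjusted p = 0.852), and the difference between the pairs, 4.73, was the largest of the 9 genes. Aqp1 is also made by red cells and by endothelium outside the brain.

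Clic6, a member of the chloride intracellular channel family that marks choroid epithelium, read -0.545 and -1.387 in pair 1 and 1.08 in pair 2. Its mean was 0.06 ± 0.74 (n = 2 pairs, limma's adjusted p = 0.997). Ttr, or transthyretin, is the carrier of thyroid hormone and retinol that choroid epithelium secretes in large amounts. It read -0.54 and -1.08 in pair 1 and 0.25 in pair 2, with a mean of -0.28 ± 0.42 (n = 2 pairs, limma's adjusted p = 0.882). Aqp1, Clic6 and Ttr were the 3 members (33.3%) below 0 in pair 1 and above 0 in pair 2, where 10.3% of all features had that pattern. At least 1.5-fold lower on both arrays of pair 1 were Aqp1, Folr1 and Enpp2, or 33.3% of members against 9.17% of all features. No member was at least 1.5-fold higher on both (0 of 9, against 5.55% of all features), or above 0 on both (0 of 9, against 21.8%). On replicate 3 alone Folr1, Enpp2 and Lmx1a were at least 1.5-fold lower and Clic6 at least 1.5-fold higher, which 22.3% and 19.5% of all features were.

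The regulators of choroid plexus formation gave small or divided ratios. Otx2, a homeodomain factor required for the choroid plexus to form and to be maintained, read -0.12, 0.03 and 0.335, with a mean of 0.15 ± 0.25 (n = 2 pairs, limma's adjusted p = 0.897). Its 2 probes turned sign with the dyes, and in opposite ways: 1 read 0.225 and -0.455 in pair 1 and the other -0.46 and 0.52. In pair 2 the probes read 0.44 and 0.23. Lmx1a, a LIM homeodomain factor of the roof plate and cortical hem, read -0.14, 0.49 and -0.97, with a mean of -0.40 ± 0.45 (n = 2 pairs, limma's adjusted p = 0.854). The probes of Lmx1a differed in pair 2, at -2.40 and 0.46, and the first of them was at the shared value of replicate 2. On replicate 1 that probe read -0.37, and the other read 0.09 and 0.98 in pair 1. Neither probe of Lmx1a thus turned sign with the dyes, and the opposite signs came from averaging them.

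Otx2 binds sites with the core TAATCC. RefSeq start sites of assembly GRCm38.p6 gave 11 windows of 300 bases for 6 of the 10 genes, some of them overlapping, each with 250 bases before the start and 50 after. The letters TAATCC on either strand occurred in 1 of the 11, a window of Otx2 itself, and in 7.06% of all 32851 windows. The GC box letters GGGCGG on either strand occurred in 4 of the 11, those of Aqp1, Kl, Lmx1a and Slc4a5, and in 35.7% of all windows. The matches of the 2 motifs in these windows did not overlap. The lines that follow give the bases before the start of Aqp1, the gene farthest from 0 in pair 1 (chr6:55336049-55336298, plus strand), and the stretch of Otx2 with the match (chr14:48665275-48665359, minus strand, ending 165 bases before that start). Capitals mark the matches, which are letters and not known sites.
Aqp1: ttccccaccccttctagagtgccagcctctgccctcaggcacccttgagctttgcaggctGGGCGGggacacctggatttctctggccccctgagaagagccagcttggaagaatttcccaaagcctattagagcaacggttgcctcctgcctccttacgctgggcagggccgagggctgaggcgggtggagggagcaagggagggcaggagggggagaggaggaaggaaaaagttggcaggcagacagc
Otx2: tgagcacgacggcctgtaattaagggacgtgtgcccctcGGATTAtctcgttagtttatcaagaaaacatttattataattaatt

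The ratios of Kl and Slc4a5 turned sign with the dyes. Kl, or Klotho, is the co-receptor of the hormone FGF23 and is made by choroid epithelium as well as kidney. It read -1.44 on replicate 1, 1.32 on replicate 2 and the shared value on replicate 3. Slc4a5, a sodium bicarbonate cotransporter of the ventricular face, read 1.29 on replicate 1, -2.24 on replicate 2 and again the shared value on replicate 3. The arrays of pair 1 thus differed by 2.76 for Kl and 3.53 for Slc4a5, more than for 91.8% and 95.4% of all features. For the other members that difference was between 0.149 and 0.842, beside a median of 0.64 over all features. Opposite signs within pair 1 were common in general, at 32.4% of features and 4 of 9 members (44.4%), Lmx1a among them only as the mean of its probes.

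**Figure D2:**
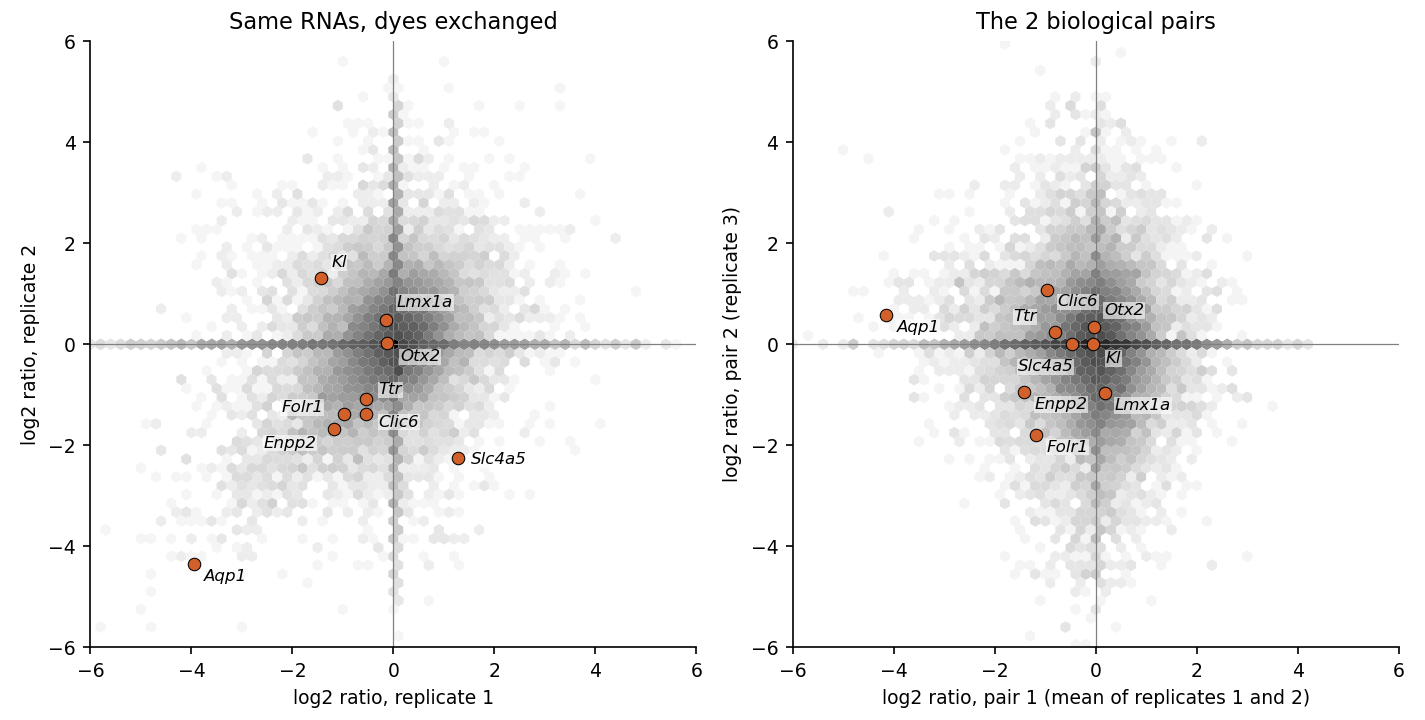
Log2 ratios of all features (grey cells, darker for more features on a log scale, cropped at 6 on either side) and of the 9 choroid plexus genes (orange). The left panel sets replicate 2 against replicate 1, where Kl and Slc4a5 lie in quadrants of opposite sign; the right panel sets pair 2 against pair 1, where Folr1 and Enpp2 are below 0 in both and Aqp1, Clic6 and Ttr are not.

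Ordered by their mean over the pairs, the genes ran from Aqp1 through Folr1, Enpp2, Lmx1a, Ttr, Slc4a5, Kl and Clic6 to Otx2 at the top. Neighbours in that order differed by less than the larger of their standard errors, apart from Enpp2 and Lmx1a, whose means were -1.19 ± 0.27 and -0.40 ± 0.45. The places of Kl and Slc4a5 rest on the shared value as their pair 2 ratio. With shared values left out, their means were -0.0575 and -0.478, from pair 1 alone, and that of Lmx1a was -0.28. The median over the 9 genes was -0.545, -1.379 and 0.001 on replicates 1 to 3, beside 0.009, 0 and 0.001 over all features. The 0.001 is the shared value of replicate 3, and over the 7 members measured there the median was 0.249. Over the pairs the median of the members was -0.28, and that of all features -0.027.

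A wider list of genes of the choroid plexus epithelium had 38 measured genes of 40. It is not limited to genes that this epithelium alone makes. Igf2 is also on a further list of meninges and fibroblasts, and Msx1 on that of the cortical hem and roof plate. The medians of the wider list were -1.06, -0.93 and 0.05 on replicates 1 to 3, so that it too was below 0 in pair 1. Of these genes 11 (28.9%) were below 0 on all 3 arrays, against 9.81% of all features, and 2 were above 0 on all of them (8.65% of all features). Features at the shared value of any array cannot be counted there. Among the 18967 features away from it on all arrays, 14.6% were below 0 on all 3. That share belongs beside each 9.81% given for a list below. No such share was computed for features above 0 or for pair 1 alone. In pair 1, 27 of 38 were below 0 on both arrays (22.9% of all features), and 16 of these were above 0 in pair 2, or 42.1% of the list against 10.3% of all features. At least 1.5-fold lower on all 3 arrays were Wfikkn2, Sema3b and Cldn3. Wfikkn2, a secreted protein that binds myostatin-like growth factors, read -1.46, -0.99 and -1.35, with a mean of -1.29 ± 0.22 (n = 2 pairs, limma's unadjusted p = 0.0252, adjusted p = 0.852). Cldn3, a tight junction protein of epithelia, read -0.92, -0.885 and -0.75, and the semaphorin gene Sema3b -1.175, -0.75 and -0.65. Igfbp2, which binds insulin-like growth factors, read -0.999, -1.67 and -0.51.

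Of the 6 genes of that list set down as markers of choroid plexus beside the members, 5 had a named probe, and Kcnj13 had none. Kcne2, a potassium channel subunit, read -0.945, -0.89 and -0.18, and Calml4, a calmodulin-like protein, -1.41, -0.96 and 0.08. The tight junction genes differed, Cldn1 at -2.76, -7.60 and 2.87 and Cldn2 at -0.98, 0.19 and -0.16. Sostdc1, a secreted antagonist of bone morphogenetic proteins, read -0.21, -2.205 and 1.19. On replicate 1 all 5 were thus below 0, and on the other arrays their signs were divided. None of the 38 passed limma's test, the lowest adjusted p among all 300 measured genes of the lists being 0.852.

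**Figure D3:**
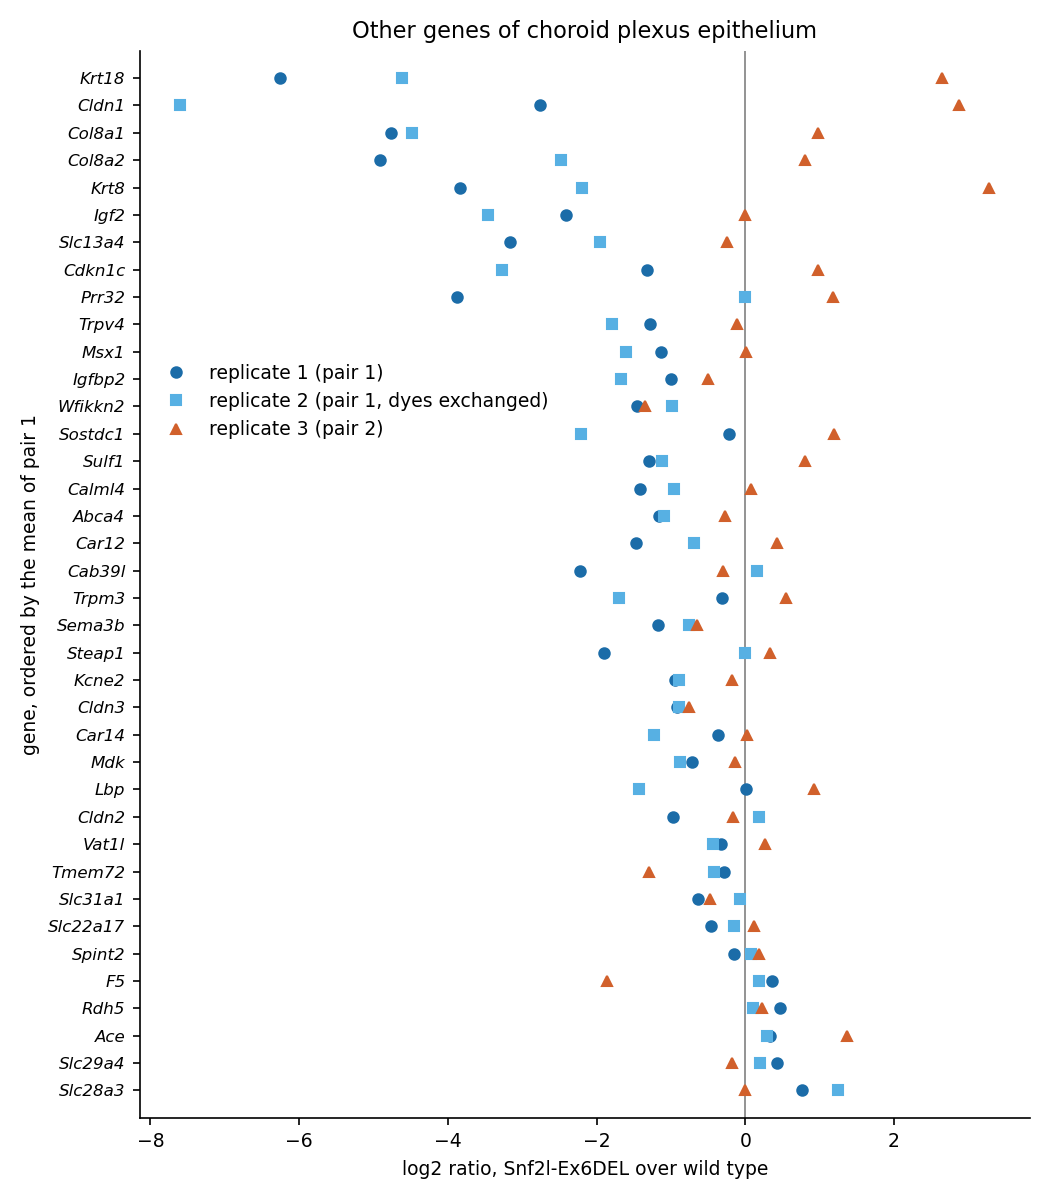
Log2 ratio of Snf2l-Ex6DEL over wild type (horizontal axis) for 38 further genes of choroid plexus epithelium, ordered by the mean of pair 1, with 1 symbol per array. The genes at the top, such as Krt18 and Cldn1, lie far below 0 in pair 1 and above 0 in pair 2, while Wfikkn2 and Cldn3 have all 3 symbols together below 0.

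Genes that work with the members were read from lists by pathway. In the folate list, 13 genes had medians of -0.16, 0.02 and -0.49, with 1 below 0 and 1 above 0 on all arrays (7.69% each, against 9.81% and 8.65% of all features). The gene above 0 was Aldh1l2, a mitochondrial enzyme of folate metabolism, at 0.59, 0.38 and 0.65, and the gene below 0 was Shmt1, an enzyme of 1-carbon metabolism, at -0.98, -0.24 and -0.64. Folr2, the folate receptor of macrophages, read -0.67, 0.02 and -0.51, and Slc46a1, the folate transporter that works with Folr1 in choroid plexus, -0.55, 0.09 and -0.66. In the lysophosphatidic acid list, 13 genes had medians of -1.05, -0.88 and 0.001, the last being the shared value. Below 0 on all arrays were 4 of them (30.8%) and above 0 on all arrays 1 (7.69%), against those 9.81% and 8.65% of all features. Lpar1, a receptor for the product of Enpp2, read -1.945, -2.17 and -0.74, with a mean of -1.40 ± 0.50 (n = 2 pairs, limma's adjusted p = 0.852). Plpp1, a phosphatase that breaks that product down, read -1.05, -1.33 and -0.49.

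Thyroid hormone and retinol genes, the partners of Ttr, were below 0 on all 3 arrays in 9 of 18 cases (50%), against 9.81% of all features, and 0 were above 0 on all 3 (8.65% of all features). Thra, Slco1a4, Rdh10, Dio1 and Crym were below 0 by little on 1 array each, at -0.01, -0.032, -0.045, -0.087 and -0.094. At least 1.5-fold lower on all 3 arrays were 2 of the 18 (11.1%), Klf9 and Lrat, against 1.73% of all features. Klf9, a thyroid hormone target gene, read -1.30, -1.18 and -1.49, with a mean of -1.37 ± 0.23 (n = 2 pairs, limma's unadjusted p = 0.0249, adjusted p = 0.852). Lrat, which esterifies retinol, read -0.75, -0.79 and -0.69. Rbp4, the plasma carrier of retinol that binds Ttr, read -2.01, -2.08 and -0.25, and Stra6, its receptor, -1.02, -1.38 and -0.19. The list's medians were -0.60, -0.54 and -0.22.

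Ion and water transport genes had medians of -0.40, -0.66 and 0.07 over 24 genes, of which 6 (25%) were below 0 on all 3 arrays, against 9.81% of all features, and 2 (8.33%) above 0, against 8.65%. The carbonic anhydrase gene Car2 read -1.95, -2.11 and -0.51, and Fxyd1, a regulator of the sodium pump, -2.18, -2.77 and -0.23. The ratios of Car9, another carbonic anhydrase, were above 0, at 0.57, 3.02 and 0.55. Among relatives of Slc4a5, Slc4a2 read -1.01, -1.07 and 0.007 and Slc4a10 0.00, -0.80 and 0.565. Aqp4, the water channel of astrocytes, read 0.20, -1.41 and -0.41.

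A further list was set down for the roof plate and for the cortical hem, next to which the forebrain choroid plexus arises. Its genes were below 0 on all 3 arrays in 5 of 24 cases and above 0 in 5 (20.8% each, against 9.81% and 8.65% of all features). Gdf7, a growth factor of the roof plate, read -2.43, -1.79 and -2.55, with a mean of -2.33 ± 0.26 (n = 2 pairs, limma's unadjusted p = 0.0111, adjusted p = 0.852). Wnt3a, the Wnt ligand that defines the hem, was on the other side at 0.91, 1.51 and 2.03, with a mean of 1.62 ± 0.36 (n = 2 pairs, limma's unadjusted p = 0.0419, adjusted p = 0.852). Wnt8b, also of the hem, read 1.94, 0.89 and 0.44. Bmp4, which is also on the list of meninges and fibroblasts, read -3.13, -2.63 and -0.56. Genes of multiciliated cells, which choroid epithelial cells resemble in bearing tufts of cilia, had medians of -0.14, 0 and 0.05 over 26 genes, with 5 (19.2%) below 0 and 3 (11.5%) above 0 on all arrays, against 9.81% and 8.65% of all features. Dnaic1, a dynein intermediate chain of cilia, read -0.51, -0.45 and -1.74, and Ccdc40, needed to assemble motile cilia, 0.35, 1.30 and 0.85. Foxj1, their master regulator, read -0.68, 0.97 and -1.67.

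Prolactin signalling genes had medians of -0.26, -0.56 and 0.001 over 11 genes, with Igf1 alone below 0 on all arrays, at -1.79, -1.15 and -0.67 (9.09% of the list, against 9.81% of all features), and 0 above 0 (8.65% of all features). The list of Klotho relatives and fibroblast growth factor receptors had 3 of 13 genes (23.1%) below 0 and 2 (15.4%) above 0 on all arrays, against 9.81% and 8.65% of all features. Fgfr1, the receptor that Klotho binds, read -0.57, -0.30 and -1.02 and Fgf15, a growth factor of the Fgf23 subfamily, 2.05, 1.12 and 0.80. None of these partner genes passed limma's test at an adjusted p of 0.05.

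Markers of other tissues that a cortical dissection can hold are given beside Aqp1, Clic6 and Ttr, which were below 0 in pair 1 and above 0 in pair 2. Markers of meninges and fibroblasts had medians of -2.997, -2.85 and 0.74 over 28 genes, and 25 of them (89.3%) were below 0 on both arrays of pair 1, against 22.9% of all features. For cartilage, bone, muscle and skin the marker medians were -4.06, -3.92 and 0.61 over 34 genes, with 29 (85.3%) below 0 on both arrays of pair 1. Endothelial and pericyte genes had medians of -0.86, -0.92 and 0.23 over 20 genes, with 14 (70%) below 0 on both, and red cell genes -1.01, -0.64 and 0.31 over 10 genes, with 8 (80%) below 0 on both. None of these markers passed limma's test, and no test set the lists against the members. Their part in the ratios of the choroid plexus genes was not tested.

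In pair 2 Folr1 and Enpp2 were below 0, at -1.795 and -0.95, where the medians of those 4 lists were above 0. Of all features 9.81% were below 0 on all 3 arrays, and of those away from the shared value on all arrays 14.6%. The same held for 3 of 28 meningeal genes (10.7%) and 7 of 34 genes of cartilage, bone, muscle and skin (20.6%). It also held for 5 of 20 endothelial (25%) and 2 of 10 red cell genes (20%). Ptgds, a prostaglandin synthase of the meninges that choroid plexus makes too, was 1 of the meningeal genes, at -5.50, -5.35 and -2.41. Another was Bmp4, which is also on the list of the cortical hem and roof plate. The cartilage collagen gene Col9a1 read -3.87, -4.13 and -1.44 and the embryonic globin gene Hbb-bh1 -1.50, -5.16 and -0.33, while Mfsd2a, a lipid transporter of brain endothelium, was above 0 at 0.42, 0.84 and 0.62. Markers of cortical neurons and their progenitors had medians above 0 in pair 1: deep-layer genes had medians of 0.99, 1.11 and -0.23 over 13 genes, and intermediate progenitor genes 1.34, 1.26 and -0.052 over 11. Above 0 on all 3 arrays were 5 deep-layer genes (38.5%) and 3 progenitor genes (27.3%), against 8.65% of all features, led by Nfia at 1.03, 0.66 and 1.04 and Neurod4 at 2.615, 2.38 and 0.905. Below 0 on all 3 were 1 deep-layer gene (7.69%) and 0 progenitor genes. The deep-layer gene was Crym, also on the thyroid hormone list, at -2.08, -0.094 and -1.67 (limma's unadjusted p = 0.0393, adjusted p = 0.852). Pair 2 rests on 1 array with 1 dye orientation, so that for every gene the pair, the array and the dye cannot be told apart there.

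**Figure D4:**
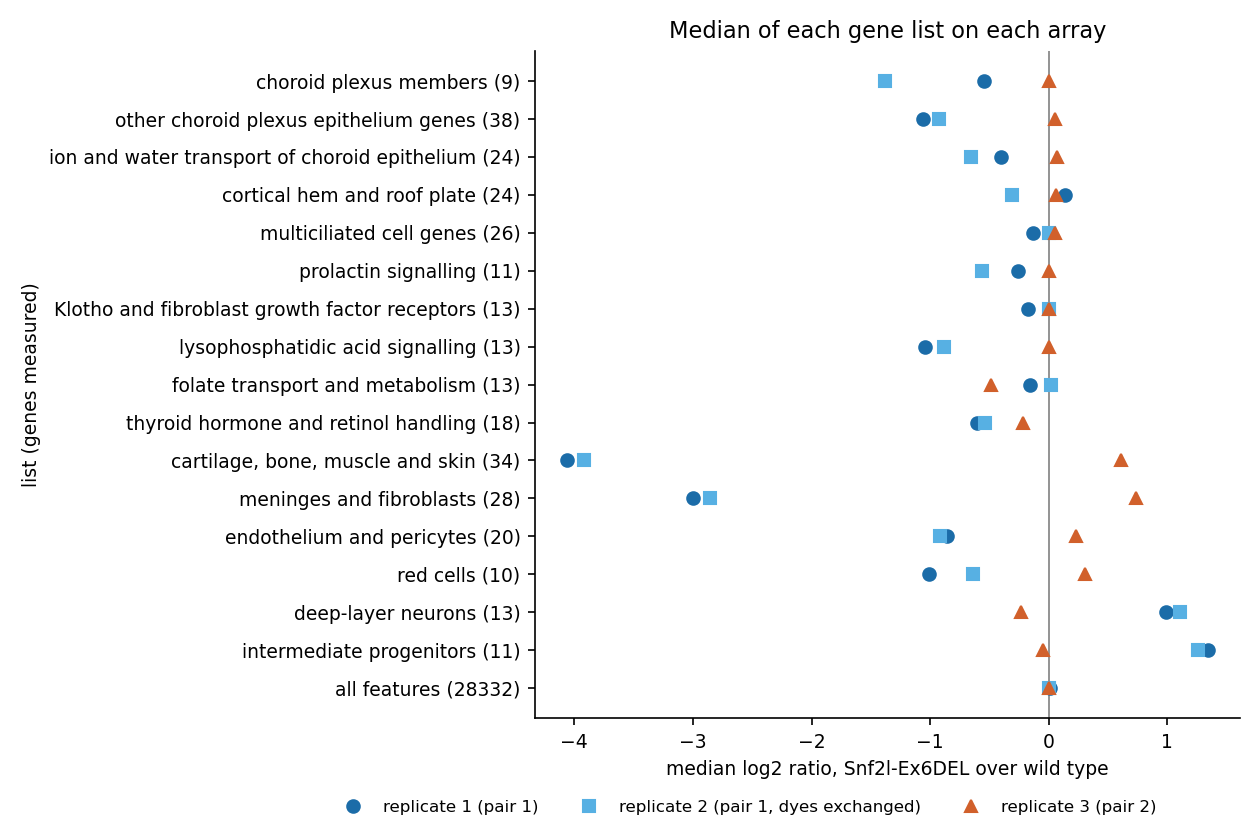
Median log2 ratio of Snf2l-Ex6DEL over wild type (horizontal axis) of the measured choroid plexus genes, of 15 further lists and of all features on each array, with the number of genes measured in brackets. Choroid plexus genes lie below 0 in pair 1 at -0.545 and -1.379, less far than meningeal genes at -2.997 and -2.85. In pair 2 they lie at 0.001, the shared value of replicate 3, and over the 7 members measured there the median was 0.249.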

How the data were processed

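Per the labels' protocols, RNeasy columns were used for RNA and a Genisphere 3DNA kit for cDNA labelling. Mutant RNA carried Cy5 on replicates 1 and 3 and Cy3 on replicate 2. The authors deposited 1 value per probe and array, read here as a log2 ratio of the channels since values lie on both sides of 0, with medians of 0.009, 0 and 0.001. Log base, centring, direction, scanner, background correction, normalization and spot filter are not given in the sources used here.

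The platform annotation gave 1 gene symbol to 30457 of 38880 probes and none to 8423. The 21476 symbols were updated through RefSeq names of GRCm38.p6: 12795 were current, 8317 were changed through a synonym and 364 were kept. Probes of a gene were averaged. Replicates 1 and 2 were averaged to 1 pair and tested with replicate 3 in limma 3.58.1 under R 4.3.3 (lmFit, eBayes, Benjamini-Hochberg over all 28332 features). Total degrees of freedom were 2.08. The procedure was also run on simulated data. The outcome of that run is not given here, so that it does not show what size of change this test could call. The number of arrays limits the precision. Figures used Python 3.11.15 and matplotlib 3.10.9.

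The members and the 15 further lists were chosen with earlier results of these data known. From each list the leading genes of 1 sign on all arrays, up to 4 and in the order of the array nearest to 0, were named, beside choroid plexus markers and partners or regulators named for their known roles with their values in view. Counts of genes below or above 0 leave out the shared value of each array. Alternatives covered arrays left out, arrays as independent samples, a dye term, scaling, quantile normalization, single probes, the median of probes, the shared values left out, the fold threshold, robust eBayes and an unmoderated t statistic.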

Additional observations from a re-analysis of the deposited data

How the results depend on the processing

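The counts of features and of members past limma's adjusted p of 0.05 were 0 under every limma fit tried. An unmoderated t statistic over the pairs called 5 features and 0 members. These were Aqp12, Entpd7, A530095I07Rik and 2 probes without a symbol, all with the same value in both pairs. The pair as a random block was not run, because limma gave no estimate of the correlation from 3 arrays. No further pairing was added, because each ratio already sets mutant against wild type within an array and the test of these ratios uses that pairing. The 808 features of 1 sign and at least 1.5-fold on all arrays became 272 at 2-fold, 1218 when single probes were counted and 2175 to 4169 with 1 array left out. The count of 2 members at least 1.5-fold lower on all arrays became 0 at 2-fold and 2 to 3 with 1 array left out (Aqp1 joining without replicate 3), and stayed 2 under the other settings. Chosen after seeing the data, the 2 members at an unadjusted p under 0.05 became 1 without values at the shared value, 1 with robust eBayes, 0 with the unmoderated t statistic, and 1 without replicate 1 or replicate 2. Means of Aqp1, Folr1, Enpp2 and Ttr stayed below 0 throughout, at -4.15 to -1.69, -1.59 to -1.18, -1.425 to -1.06 and -0.81 to -0.15. No setting left out pair 1, however. In pair 2 alone Aqp1 and Ttr were above 0, at 0.57 and 0.25, and Folr1 and Enpp2 below it, at -1.795 and -0.95. Signs turned for Clic6 with arrays as independent (-0.28), a dye term (-0.56) and an array left out (-0.97 to 0.27), for Kl with a dye term (0.30), for Lmx1a on 1 of its probes (0.50), and with an array left out for Kl (-0.72 to 0.66), Lmx1a (-0.56 to 0.18), Otx2 (-0.043 to 0.18) and Slc4a5 (-1.12 to 0.64). Medians over the pairs moved past the spread between pairs for Klotho relatives: -0.12 with arrays as independent, -0.051 with quantile normalization, -0.35 with every probe, -0.28 with the median of probes, -0.023 without shared values and -0.396 to 0.0045 with an array left out. They moved to 0.0028 for multiciliated cell genes and -0.42 for thyroid hormone genes with every probe, and to a range of 0.37 to 1.30 for intermediate progenitors with an array left out. The pair medians of the Klotho list were 0.004 and 0.001, the latter a shared value, so that even small shifts passed their spread. Those of the lysophosphatidic acid list were -0.594 and 0.001. Its median over the pairs went from -0.36 to -0.059 with every probe without passing that spread. The causes were not tested.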
